A study of Mus musculus with 9 samples.

Results

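RANKL, OPG and 3 further secreted factors by which bone-forming cells act on osteoclasts were followed in phosphate-treated MC3T3-E1 cells. The genes were chosen by name, without a cut on their values but with earlier results of these data known: Tnfsf11, Tnfrsf11b, Csf1, Il34 and Sema3a. They are 5 of the 55416 genes in the count table, and 4 of them were among the 13679 genes with enough reads to be tested; the exception was Tnfsf11.

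MC3T3-E1 is a clonal line of mouse calvarial osteoblast precursors, so all libraries come from a single clone. Cells of all 3 conditions had been kept up to day 27 in osteogenic medium, which per the labels held 10 mM BGP, 50 µg/ml ascorbic acid and 0.1 µM dexamethasone. BGP is beta-glycerophosphate, an organic phosphate. The study describes it as quickly broken down to inorganic phosphate by alkaline phosphatase once it is in the medium. According to the study's methods BGP was taken out of the medium before the experiment, and the labels do not mention this step. At day 27, treatment was begun with 4 mM BGP, with 4 mM of the inorganic phosphate NaHPO4, or with no added phosphate (Control), and lasted 16 h. Per the study's methods the medium itself held sodium phosphate in every condition, Control included. RNA sequencing gave 3 libraries per condition, 9 in all, with 21390839 to 28234404 counts each. The labels number the libraries but do not say whether they came from separate cultures, so that p-values measure only the spread between these libraries.

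The cells expressed markers of the osteoblast lineage, with some of the osteocyte markers at low levels. All 14 osteoblast and osteocyte markers examined had enough reads to be tested, and their summed level ran from 110212 to 117291 CPM in Control, from 107672 to 113805 CPM after BGP and from 97512 to 104375 CPM after NaHPO4. CPM stands for counts scaled to a library of 1e6 counts after TMM normalization. Most of the summed level came from Col1a2, Col1a1 and Ibsp, with means of 56380, 43285 and 12429 CPM in Control. With NaHPO4, 6 of these markers were lower than in Control at a false discovery rate (FDR) below 0.05, and Dmp1 was higher (log2FC 2.19). Among the 6 were Col1a1 (log2FC -0.22), Alpl (log2FC -0.21) and Sost (log2FC -1.68). Sost rested on 30 to 36 counts in Control and 9 to 14 with NaHPO4. It was not among the markers that DESeq2 called in this comparison, where DESeq2 gave no adjusted p for 1 of the 14. That marker was not identified, but Sost had the fewest counts of the 14. The missing call of Sost therefore cannot be read as a failed test. With BGP, Phex, Dmp1 and Fgf23 were higher and no marker passed in the other direction. DESeq2 called Dmp1 and Fgf23 but not Phex, whose mean was 34.7 ± 0.543 CPM in Control and 41.6 ± 3.75 CPM after BGP. In bulk RNA, fewer cells of a type and less RNA per cell cannot be told apart.

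Osteoclasts are formed from myeloid precursors under the direction of cells of the osteoblast lineage. RANKL, encoded by Tnfsf11, binds its receptor RANK on the precursor and starts osteoclast differentiation, and osteoprotegerin (OPG), encoded by Tnfrsf11b, is a secreted decoy receptor that captures RANKL. Csf1 encodes M-CSF and Il34 encodes interleukin 34, which share the receptor CSF1R and keep precursors alive and dividing. Sema3a encodes semaphorin 3A, a ligand of neuropilin and plexin A receptors that restrains osteoclast formation and favours osteoblasts. In this tissue the balance of RANKL to OPG is widely used as a measure of how strongly bone cells promote resorption.

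Tnfsf11 (ENSMUSG00000022015; GRCm39 chr14:78514885-78545490, minus strand, 5 exons in the canonical transcript) had 0 counts in all 9 libraries. At these depths a count of 0 allows up to 3 counts, which is 0.105 to 0.140 CPM per library, for counting error only. RANKL transcripts were therefore not detectable at this depth in Control, with BGP or with NaHPO4, and no fold change or test could be had. Of the 2194 windows of 50 bases in its canonical transcript, 0 also occurred in transcripts of another annotated gene, and no exon of another gene overlapped it. The ratio of Tnfsf11 to Tnfrsf11b, which was to be given per library, could not be computed.

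The promoters of the 5 genes were looked up in a RefSeq table of build GRCm38.p6, an earlier build than that of the count table, and 3 of the 5 were found (Tnfsf11, Csf1 and Sema3a, but neither Tnfrsf11b nor Il34). Those of Tnfsf11 and Csf1 are shown, as the promoter of the gene without reads and that of the gene with the highest level per length averaged over the 9 libraries. Each runs over the 250 bases before the annotated start, at chr14:78308044-78308293 for Tnfsf11 and chr3:107760470-107760719 for Csf1, both on the minus strand and written 5′ to 3′. Capitals mark the TATA box core TATAA on both strands for Tnfsf11, where the matches overlap by all but 1 base, and the GC box GGGCGG for Csf1.
Tnfsf11 promoter: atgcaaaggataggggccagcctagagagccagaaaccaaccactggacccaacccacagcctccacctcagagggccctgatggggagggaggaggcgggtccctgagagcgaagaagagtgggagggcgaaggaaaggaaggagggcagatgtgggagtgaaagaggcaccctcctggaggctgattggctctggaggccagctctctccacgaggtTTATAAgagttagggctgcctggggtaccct
Csf1 promoter: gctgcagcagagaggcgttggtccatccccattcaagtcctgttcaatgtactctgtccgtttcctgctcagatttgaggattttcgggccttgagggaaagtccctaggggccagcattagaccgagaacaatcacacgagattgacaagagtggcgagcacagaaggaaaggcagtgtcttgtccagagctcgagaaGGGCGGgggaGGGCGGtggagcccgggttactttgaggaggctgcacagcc
The TATAA matches of Tnfsf11 began 31 and 30 bases before the start, and the GC boxes of Csf1 began 51 and 41 bases before it. Of the 32851 promoters in the table, 22.8% held TATAA and 32.7% held GGGCGG on either strand. The Tnfsf11 promoter held 4 CpG dinucleotides and 37.8% of promoters held fewer, while that of Csf1 held 10 and 62.2% held fewer. A RUNX site (AACCACA, in 4.4% of promoters), an AP-1 site (TGANTCA, 6.75%), a STAT site (TTCNNNGAA, 7.02%) and a CRE core (TGACG, 17.8%) were searched on both strands. None of these letters was present in any of the 3 windows, which says nothing of the factors themselves.

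In contrast to RANKL, the decoy receptor was abundant and rose with both phosphates. Tnfrsf11b (ENSMUSG00000063727; GRCm39 chr15:54114015-54142075, minus strand, 5 exons) was read at 213, 199 and 207 CPM in Control, 229, 225 and 230 CPM after BGP and 265, 254 and 261 CPM after NaHPO4. The 3 conditions did not overlap: every NaHPO4 library lay above every BGP library, and every BGP library above every Control library. Treatment with NaHPO4 raised the level from 207 ± 7.08 to 260 ± 5.59 CPM (SD, n = 3), a fold of 1.26 (log2FC 0.33, SE 0.0343, 95% interval 0.26 to 0.40). The adjusted p was 6.86e-09 by edgeR's quasi-likelihood test with Benjamini-Hochberg adjustment over all tested genes, the method behind every adjusted p given here. By p-value it was number 38 among the 13679 tested genes, while 606 genes had a higher log2FC.

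With BGP the OPG transcript reached 228 ± 2.54 CPM, 1.10-fold over Control (log2FC 0.14, SE 0.0347, 95% interval 0.07 to 0.21, adjusted p = 0.0143). The call was lost when any of 3 libraries was left out: without Control replicate 2 the log2FC was 0.12 with an adjusted p of 0.107, without BGP replicate 1 the adjusted p was 0.0676, and without BGP replicate 3 it was 0.0616. The response to the organic phosphate was smaller than that to the inorganic one when both were compared directly. BGP-treated cells held less Tnfrsf11b than NaHPO4-treated cells (log2FC -0.19, SE 0.0341, 95% interval -0.26 to -0.12, adjusted p = 0.000282). The comparisons with Control share the same 3 Control libraries. The direct comparison is not made against them, though its SE and adjusted p rest on a spread estimated from all 9 libraries.

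Given per length, Tnfrsf11b exceeded the level that 3 counts of Tnfsf11 would give at least 1133-fold, 1137-fold and 1304-fold in the Control libraries. The corresponding bounds were 1260-fold, 1245-fold and 1329-fold with BGP and 1808-fold, 1797-fold and 1659-fold with NaHPO4. Since Tnfsf11 stayed at 0, the differences between these bounds follow the OPG reads and the depth of each library, and they are no measure of a change in the ratio.

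**Figure D1:**
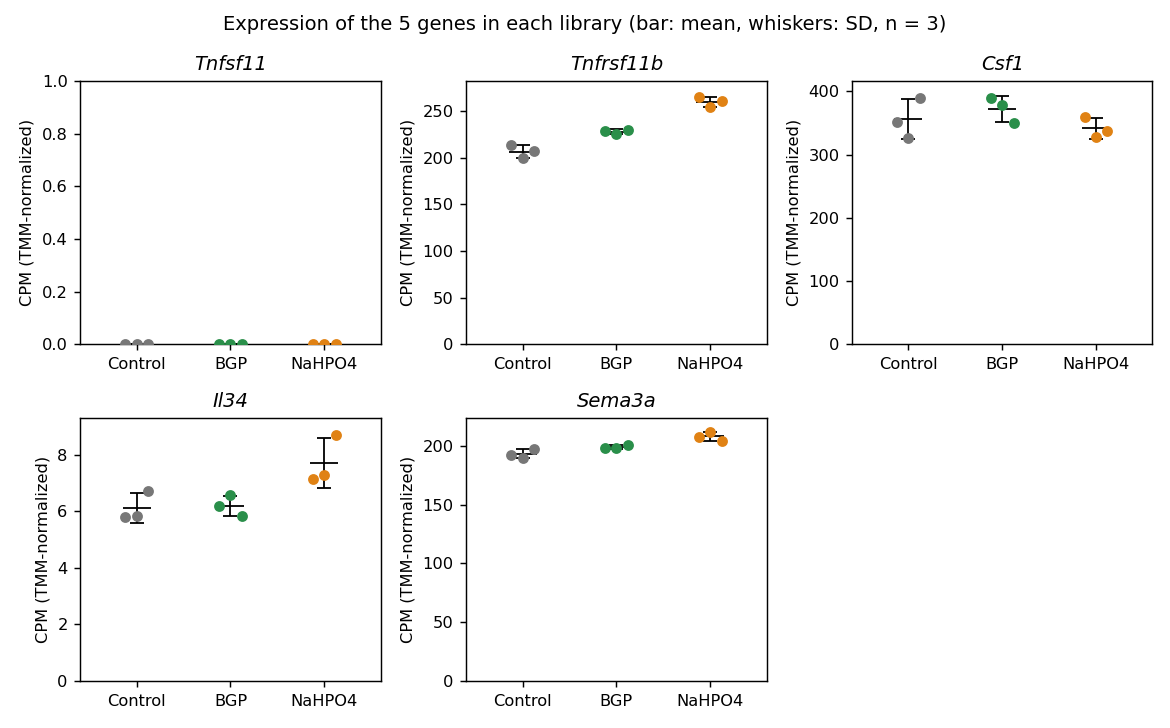
TMM-normalized CPM (linear axes from 0) of the 5 genes in each of the 9 libraries by condition, 1 point per library, with the mean and SD of 3 libraries. Tnfsf11 is at 0 in every library, the 3 conditions of Tnfrsf11b and of Sema3a do not overlap, and those of Csf1 do.

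The major ligand of CSF1R did not pass the test in any comparison. Csf1 (ENSMUSG00000014599; GRCm39 chr3:107648364-107667806, minus strand, 9 exons) was read at 352, 327 and 390 CPM in Control, 389, 379 and 349 CPM after BGP and 360, 328 and 337 CPM after NaHPO4. The libraries of the 3 conditions overlapped, and the spread was wide in Control, where 1 library lay at the top and another at the bottom of all 9. The mean was 356 ± 31.9 CPM in Control, 372 ± 20.7 CPM after BGP and 342 ± 16.6 CPM after NaHPO4. Against Control the log2FC was 0.06 with BGP (95% interval -0.03 to 0.16, adjusted p = 0.586) and -0.06 with NaHPO4 (95% interval -0.15 to 0.03, adjusted p = 0.507). BGP against NaHPO4 gave 0.12 (95% interval 0.03 to 0.22), with an unadjusted p of 0.00902 and an adjusted p of 0.109. In that comparison the adjusted p fell to 0.0324 without BGP replicate 3 and to 0.0358 without NaHPO4 replicate 1. An unnamed gene model on the opposite strand overlaps its exons, and 0 of its 4148 windows of 50 bases were shared with another gene.

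Il34, the second ligand of CSF1R, was far less abundant and its libraries with NaHPO4 all lay above the rest, but the difference did not pass the test. Il34 (ENSMUSG00000031750; GRCm39 chr8:111423928-111532584, minus strand, 7 exons) was read at 5.80, 5.83 and 6.73 CPM in Control, 6.18, 6.56 and 5.85 CPM after BGP and 7.13, 7.27 and 8.71 CPM after NaHPO4. These values rest on 124 to 223 counts per library. Against Control, NaHPO4 gave a fold of 1.25 (log2FC 0.33, SE 0.123, 95% interval 0.08 to 0.58), with an unadjusted p of 0.0122 and an adjusted p of 0.111. BGP against NaHPO4 gave -0.31 (95% interval -0.56 to -0.06, adjusted p = 0.159), and BGP against Control gave 0.01 (95% interval -0.25 to 0.28, adjusted p = 0.977). The log2FC with NaHPO4 was thus 0.33 for both Il34 and Tnfrsf11b, with an SE of 0.123 for the first and 0.0343 for the second.

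Exons of Vac14 on the opposite strand overlap Il34, and reads of the pair can be told apart only by strand, a setting of the counting that is not given in the sources used here. Vac14 held 642 to 822 counts per library, and its log2FC lay between -0.02 and -0.01 in the 3 comparisons (adjusted p from 0.915 to 0.978). Of the 1709 windows of 50 bases in the canonical Il34 transcript, 26 (1.52%) occurred in transcripts of other genes.

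Sema3a differed little between conditions, and relative to its mean its libraries varied by 1.93% in Control, 0.802% with BGP and 1.86% with NaHPO4 (coefficient of variation). Sema3a (ENSMUSG00000028883; GRCm39 chr5:13175288-13653578, plus strand, 17 exons) was read at 192, 190 and 197 CPM in Control, 198, 198 and 201 CPM after BGP and 208, 212 and 204 CPM after NaHPO4. The conditions did not overlap and stood in the same order as those of Tnfrsf11b. NaHPO4 raised it 1.08-fold (log2FC 0.11, SE 0.0336, 95% interval 0.04 to 0.18, adjusted p = 0.0435). That call was lost in 7 of the 9 fits that each left out a library, where the adjusted p rose to as much as 0.187 (without NaHPO4 replicate 2), and it was kept without Control replicate 3 and without NaHPO4 replicate 3. With BGP the log2FC was 0.04 (95% interval -0.03 to 0.11, adjusted p = 0.657), and between the phosphates it was -0.07 (95% interval -0.13 to 0.00, adjusted p = 0.323). Of its 7406 windows of 50 bases, 158 (2.13%) occurred in transcripts of other genes.

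**Figure D2:**
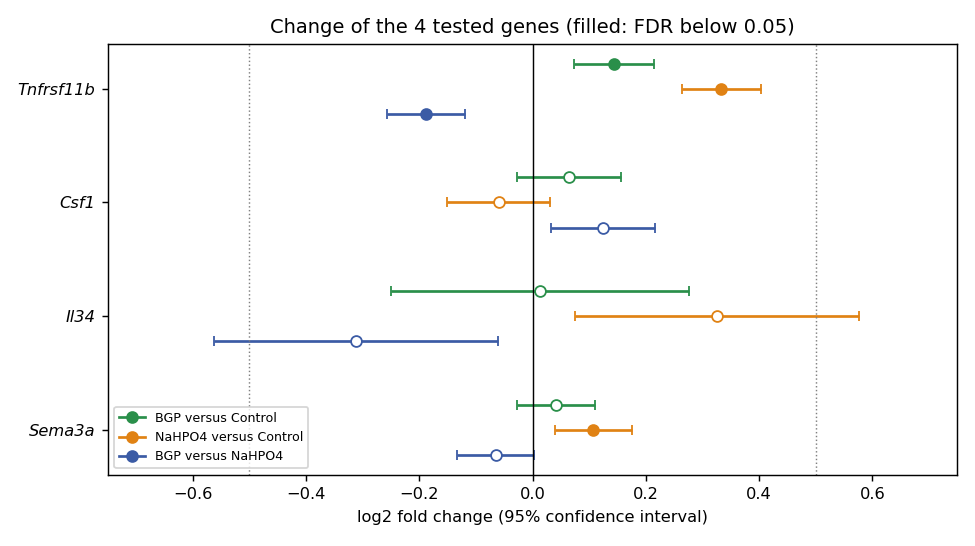
Log2 fold change of the 4 tested genes (horizontal axis, bars: 95% confidence interval) in the 3 comparisons, filled where the FDR was below 0.05, with dotted lines at 0.5 on either side of 0. Tnfrsf11b is filled in all 3 comparisons and Sema3a with NaHPO4 against Control, all at less than 0.5.

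Counted over the 4 tested genes, 1 rose with BGP against Control, where 1.86% of all tested genes were higher and 0.665% lower at an FDR below 0.05. With NaHPO4, 2 rose against Control, where 3.43% of all tested genes were higher and 3.95% lower. Between BGP and NaHPO4, 1 was lower with BGP, where 3.33% of all tested genes were higher and 2.05% lower. None of the 4 reached an absolute log2FC of 0.5 in any comparison, so that 0 counted as differentially expressed genes (DEGs) by edgeR, against 0.556% of all genes with BGP, 0.716% with NaHPO4 and 0.585% between the phosphates. DESeq2 also called 0 DEGs. At an unadjusted p under 0.05 there were 1, 3 and 3 of the 4 in these comparisons, and 0 of them with an absolute log2FC above 0.5. Libraries did not overlap for 2 of the 4 with BGP against Control (18.5% of all tested genes), for 3 with NaHPO4 against Control (23.2%) and for 3 between the phosphates (21.2%). The median log2FC of the 4 was 0.05, 0.22 and -0.13, where that of all tested genes was -0.0043, 0.000097 and -0.0018.

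Per kilobase of canonical transcript, levels can be set side by side between genes. In Control, Csf1 stood highest at 84.8 ± 7.60 CPM per kilobase, followed by Tnfrsf11b at 68.6 ± 2.35, Sema3a at 25.9 ± 0.499 and Il34 at 3.48 ± 0.302. With NaHPO4 the first 2 exchanged places, at 86.3 ± 1.85 for Tnfrsf11b and 81.4 ± 3.96 for Csf1, but their libraries overlapped (84.4 to 88.0 against 78.1 to 85.8 CPM per kilobase). With BGP the order was that of Control, with Csf1 at 88.7 ± 4.93 and Tnfrsf11b at 75.7 ± 0.844 CPM per kilobase. Averaged over the 9 libraries, 96% of the tested genes with a known length lay below Csf1, 95.5% below Tnfrsf11b, 83.9% below Sema3a and 35% below Il34.

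The receptors that mark the osteoclast precursor were at or near 0 in these cultures. Tnfrsf11a, which encodes RANK, was listed at 0 in all 9 libraries, and Csf1r, the receptor of M-CSF and interleukin 34, at 15 to 27 counts. In Control, Csf1r came to 0.152 ± 0.0555 CPM per kilobase. Several other receptors examined were expressed. Lgr4, a receptor that binds RANKL, was at 10.0 ± 0.402 CPM per kilobase in Control. The semaphorin receptors Nrp1 and Nrp2 were at 17.9 ± 0.618 and 100 ± 0.805, and Plxna1, Plxna2 and Plxna3 at 14.0 ± 0.573, 20.9 ± 0.952 and 4.24 ± 0.283 CPM per kilobase. Plxna4 had at most 1 count, Ptprz1, an alternative receptor of interleukin 34, at most 4, and Tnfsf10, which encodes TRAIL, the other ligand that OPG captures, at most 1.

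**Figure D3:**
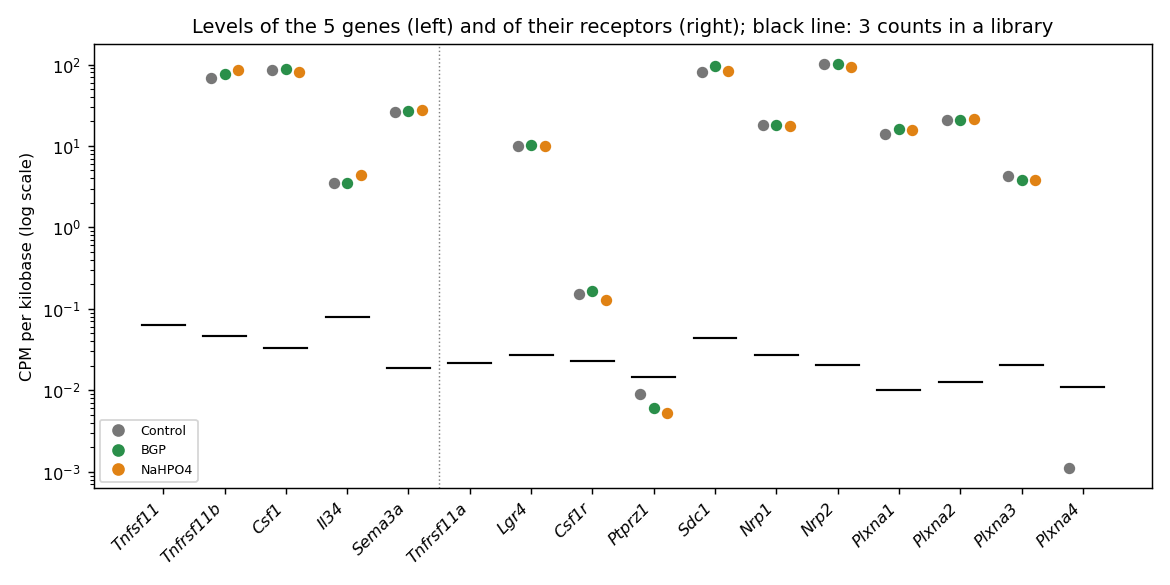
Mean CPM per kilobase of canonical transcript (log axis) of the 5 genes and of receptors examined with them in Control, BGP and NaHPO4. Each point is a mean of 3 libraries, and a black line marks the level of 3 counts in the shallowest library. Tnfsf11 and Tnfrsf11a have no point because they are at 0, and Csf1r lies far below its ligands Csf1 and Il34.

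Of the 12 receptors and binding partners, 8 were tested. With BGP, 2 rose, 1 rose with NaHPO4, and none fell at an FDR below 0.05. Sdc1, which encodes the proteoglycan syndecan 1 that binds interleukin 34, was at 264, 251 and 272 CPM in Control, 315, 311 and 307 CPM after BGP and 260, 262 and 270 CPM after NaHPO4. All BGP libraries lay above the other 6 (log2FC 0.25 against Control, SE 0.0344, adjusted p = 7.01e-06, and 0.23 against NaHPO4, adjusted p = 1.01e-05). Plxna1, a coreceptor of semaphorin 3A, rose with BGP (log2FC 0.20, adjusted p = 0.000484) as it did under NaHPO4 (log2FC 0.18, adjusted p = 0.00052). DESeq2 also called Nrp2 with NaHPO4, where edgeR gave it a log2FC of -0.09 (adjusted p = 0.0913). The median log2FC of the 8 was 0.03, -0.02 and 0.04 in the 3 comparisons.

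Of 7 genes for the shedding and transport of RANKL, all were tested and 2 passed, in opposite directions and with NaHPO4. Rab27b, a small GTPase of secretory vesicles, was at 84.2, 85.8 and 89.0 CPM in Control and at 109, 105 and 109 CPM after NaHPO4 (log2FC 0.32, SE 0.0394, adjusted p = 2.71e-07). Mmp14, a membrane metalloproteinase that can release RANKL from the cell surface, had a mean of 1083 ± 19.5 CPM in Control and 907 ± 10.6 CPM after NaHPO4 (log2FC -0.26, SE 0.0320, adjusted p = 3.95e-07). Both also differed between the phosphates, Rab27b with a log2FC of -0.23 (adjusted p = 0.000117) and Mmp14 with 0.22 (adjusted p = 1.25e-05). With BGP against Control, 0 of the 7 passed by edgeR, and 0 by DESeq2, which gave no adjusted p for 1 of them. At an unadjusted p under 0.05 there were 2, Adam17 (log2FC 0.10, unadjusted p = 0.0261) and Rab27b (log2FC 0.09, unadjusted p = 0.0346).

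Other factors known to promote osteoclasts, and enzymes that make such factors, ranged from no reads to high levels. Of 20 genes of this list, 4 were at 0 in all libraries, namely Tnf, Il1a, Il1b and Il15, and Il6 had at most 5 counts, while in Control the chemokine gene Cxcl12 was at 113 CPM, Vegfa at 110 CPM and Sphk1 at 70.5 CPM. Of the 12 tested, Sphk1, which makes sphingosine 1-phosphate, rose under BGP (log2FC 0.17, adjusted p = 0.0255) and exceeded its NaHPO4 level (log2FC 0.15, adjusted p = 0.0399), and the first call was lost without Control replicate 1 or 2 or any BGP library (adjusted p up to 0.167). The second was lost in 8 of 19 alternatives, which were DESeq2, limma, total counts and the fits without any BGP library or NaHPO4 replicate 1 or 2 (adjusted p up to 0.179). Vegfa, the vascular growth factor, exceeded its NaHPO4 level in BGP-treated cells (log2FC 0.25, adjusted p = 8.70e-05), from 121 ± 7.60 CPM against 101 ± 4.08 CPM. None of the 12 passed with NaHPO4 against Control by edgeR, and 2 had an unadjusted p under 0.05, of which Vegfa gave a log2FC of -0.12 (adjusted p = 0.0848). DESeq2 also called 0 there, but it gave no adjusted p for 3 of the 12.

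Of 15 factors known to restrain osteoclasts, 5 were at 0 in all libraries and 5 were tested. Il12a, which encodes the p35 chain shared by interleukins 12 and 35, had the largest change of the 5 in the BGP comparison, at 3.27, 2.39 and 3.19 CPM in Control, 7.08, 8.36 and 7.61 CPM after BGP and 4.48, 4.74 and 4.84 CPM after NaHPO4. The conditions did not overlap, and the log2FC was 1.38 with BGP (SE 0.148, adjusted p = 2.36e-08), 0.67 with NaHPO4 (SE 0.154, adjusted p = 0.00397) and 0.71 between them (adjusted p = 0.00049). Il12b, which encodes the second chain of interleukin 12, had at most 2 counts. Ccn3, a matricellular protein, fell with NaHPO4 (log2FC -0.56, SE 0.153, adjusted p = 0.016), from 7.71 ± 1.38 to 5.21 ± 0.843 CPM, and that call was lost without replicate 1 or 2 of Control or of NaHPO4 (adjusted p up to 0.130). Wnt4, a secreted Wnt ligand, fell with NaHPO4 (log2FC -0.23, adjusted p = 0.0302), although its libraries overlapped with those of Control. That call was lost in 7 of 19 alternatives (adjusted p up to 0.201). They were DESeq2, limma, total counts and the fits without replicate 1 or 3 of Control or of NaHPO4.

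**Figure D4:**
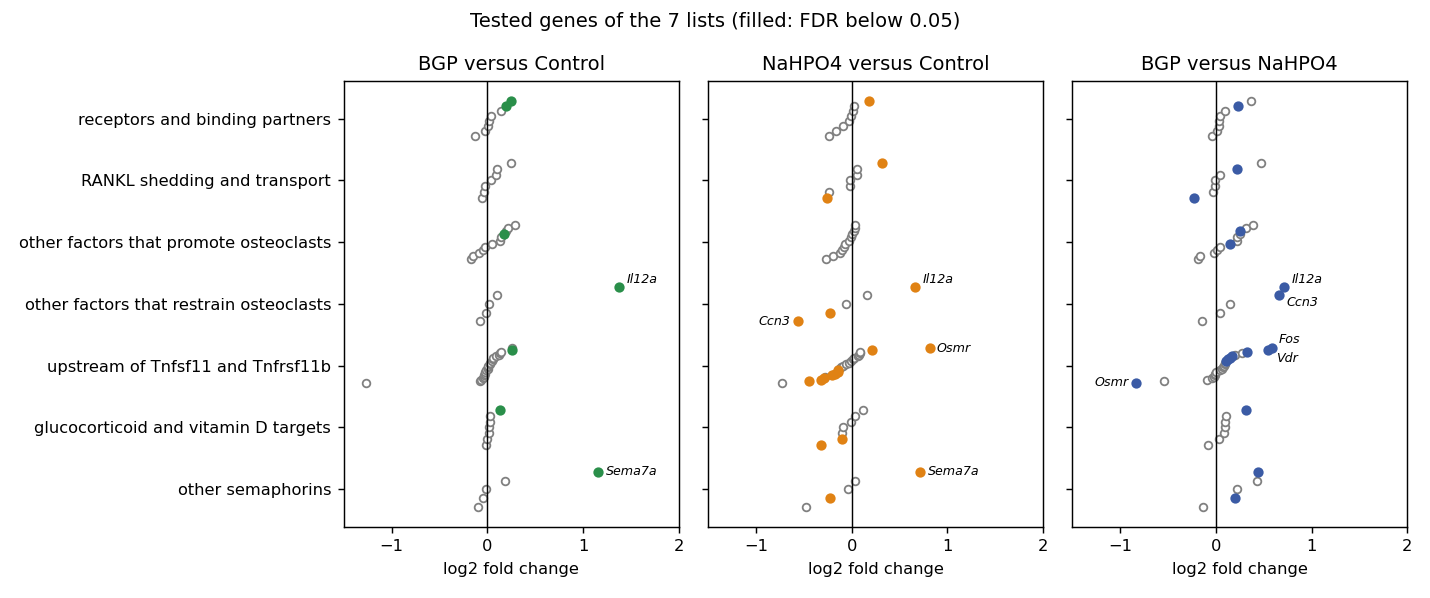
Log2 fold change (horizontal axes) of every tested gene in 7 lists (rows) in the 3 comparisons, 1 point per gene, filled where the FDR was below 0.05, with names at an absolute log2FC above 0.5 among the filled points. Il12a and Sema7a lie far to the right with both phosphates, and Osmr with NaHPO4 against Control.

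Among the receptors and transcription factors that act upstream of Tnfsf11 and Tnfrsf11b, more genes passed the test with NaHPO4 than with BGP, as was also the case over all tested genes (3.43% higher and 3.95% lower against 1.86% and 0.665%). The difference was not itself tested. Of 25 genes, 23 were tested; 1 rose with BGP, and 2 rose and 7 fell with NaHPO4, with a median log2FC of 0.01 and -0.09. Osmr, the receptor of oncostatin M, was at 10.9, 14.1 and 12.6 CPM in Control, 11.2, 12.3 and 13.6 CPM after BGP and 21.1, 21.6 and 23.7 CPM after NaHPO4. The 3 NaHPO4 libraries stood apart from the other 6, which overlapped (log2FC 0.81, SE 0.0882, adjusted p = 2.00e-08, fold 1.76). BGP against Control gave -0.02 for Osmr (95% interval -0.22 to 0.17), and the difference between the phosphates was -0.84 (adjusted p = 2.06e-08). Il6ra, the receptor of interleukin 6, fell with NaHPO4 (log2FC -0.32, adjusted p = 0.0162), and so did the AP-1 gene Fos (log2FC -0.45, adjusted p = 0.0485). The call of Il6ra was lost without Control replicate 2 or NaHPO4 replicate 2 (adjusted p up to 0.122), and that of Fos in 13 of 19 alternatives, all but 1 of the 9 left-out libraries among them (adjusted p up to 0.206). Ptger4, a prostaglandin E2 receptor named after its values were seen, held 5 to 18 counts and gave a log2FC of -1.27 with BGP (SE 0.468, adjusted p = 0.180).

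The vitamin D receptor moved in opposite directions with the 2 phosphates. Vdr was at 129, 121 and 144 CPM in Control, 165, 164 and 144 CPM after BGP and 107, 108 and 108 CPM after NaHPO4. It rose with BGP (log2FC 0.26, SE 0.0477, adjusted p = 0.000585), where 1 BGP and 1 Control library overlapped, and fell with NaHPO4 (log2FC -0.29, SE 0.0483, adjusted p = 6.73e-05). The difference between the phosphates was 0.55 (SE 0.0479, adjusted p = 2.24e-10). The other 5 genes that passed with NaHPO4 lay outside the 4 with the largest change and are named after their values were seen. Stat3, the transcription factor below gp130 receptors, rose (log2FC 0.21, adjusted p = 9.15e-05). Il11ra1 (-0.20), the parathyroid hormone receptor gene Pth1r (-0.18), the Wnt coreceptor gene Lrp5 (-0.15) and Ctnnb1 (-0.14), which encodes beta-catenin, fell on the log2 scale, and Lrp5 lost its call without Control replicate 3 (adjusted p = 0.0795).

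Dexamethasone and vitamin D are known to act on RANKL and OPG, and 8 of their target genes were followed. Of the 7 tested, Sgk1 rose with BGP (log2FC 0.13, adjusted p = 0.0246), and Dusp1 (log2FC -0.32, adjusted p = 0.00856) and Tsc22d3 (log2FC -0.10, adjusted p = 0.0328) fell with NaHPO4. Each of these calls was lost without 1 or more single libraries, that of Sgk1 without Control replicate 2 or 3 or any BGP library (adjusted p up to 0.121), that of Dusp1 without Control replicate 1 (0.0772) and that of Tsc22d3 without Control replicate 1 or 2 or any NaHPO4 library, and also under limma and total counts (0.119). Cyp24a1, a vitamin D hydroxylase induced through the receptor, had at most 3 counts and was not tested.

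Of 9 semaphorins beside Sema3a, 5 were tested. Sema7a, a membrane-anchored semaphorin, was at 72.2, 61.3 and 85.6 CPM in Control, 176, 164 and 151 CPM after BGP and 129, 113 and 120 CPM after NaHPO4. The conditions did not overlap, and it rose 2.23-fold with BGP (log2FC 1.16, SE 0.0652, adjusted p = 5.63e-16) and 1.65-fold with NaHPO4 (log2FC 0.72, SE 0.0656, adjusted p = 4.19e-10). It was therefore highest with BGP, unlike Sema3a, whose mean was highest with NaHPO4; the difference between the phosphates was 0.44 for Sema7a (adjusted p = 5.20e-06). Sema3b, a relative of Sema3a in the same secreted class, fell with NaHPO4 (log2FC -0.22, adjusted p = 0.00156).

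**Figure D5:**
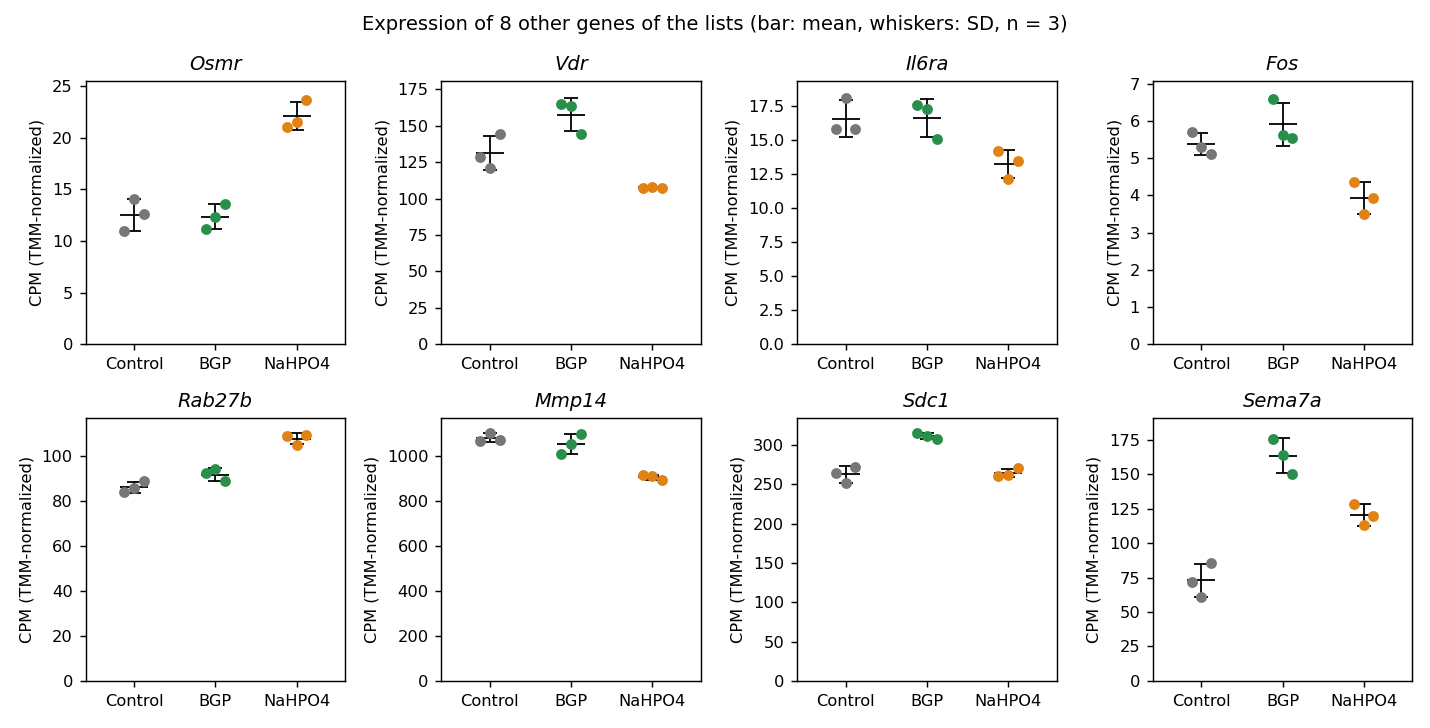
TMM-normalized CPM (linear axes from 0) of 8 other genes of the lists in each library by condition, 1 point per library, with the mean and SD of 3 libraries. Osmr is set apart by the 3 NaHPO4 libraries, Vdr lies highest with BGP and lowest with NaHPO4, and Sema7a is lowest in Control.

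Several defining markers of osteoclasts and macrophages were at 0. Of 17 osteoclast and macrophage markers, 6 were at 0 in all libraries (Tnfrsf11a, Calcr, Dcstamp, Atp6v0d2, Aif1 and Tyrobp). Of the others, 5 were tested by edgeR and 0 passed in any comparison. At an unadjusted p under 0.05 there was 1 with BGP against Control and 3 between the phosphates. DESeq2 also called 0, but it gave no adjusted p for 4 of the 5, so its result covers the remaining gene only. The summed level of the 17 markers was 44.6 to 53.2 CPM in Control, 52.2 to 56.4 CPM after BGP and 45.1 to 48.5 CPM after NaHPO4. Nfatc1, a transcription factor of osteoclasts that is not confined to them, made up most of that sum, at 41.9 to 50.0 CPM per library. Markers of adipocytes summed to 26.0 to 31.7, 24.0 to 27.9 and 20.4 to 27.6 CPM in the same order. Those of chondrocytes summed to 261 to 325, 351 to 457 and 196 to 277 CPM. Col2a1 made up most of the chondrocyte sum, with means of 242, 342 and 177 CPM, while Comp was at 16.0, 11.8 and 11.4 CPM. Of the 4 chondrocyte markers tested by edgeR against Control, 1 passed higher and 1 lower with BGP, and 2 lower with NaHPO4. In both comparisons DESeq2 called only Comp and gave no adjusted p for 1 of the 4. The part of both cell types in the results was not tested. The fall of osteoblast markers given above ran beside the rise of Tnfrsf11b with NaHPO4, and its part in that rise was not tested.

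The genes with the pattern most like each of the set were sought by Pearson's r of log2 CPM over the 9 libraries, as a description only, since the libraries share conditions and depth. For Tnfrsf11b these were Cd300lb (r = 0.967, with means of 0.147, 0.579 and 3.26 CPM in Control, BGP and NaHPO4), Stard4 (r = 0.963, with 43.3, 52.8 and 60.3 CPM) and Entpd5 (r = 0.960, with 20.6, 21.7 and 23.2 CPM). For Csf1 they were Synj2 (0.966), Rhod (0.956) and Zfhx2 (0.941), and for Il34 they were Ldah (0.977), Ybx1 (0.975) and Rab14 (0.956). For Sema3a they were Lhfp (0.956), AI506816 (0.952) and Pcdh19 (0.942).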

How the data were processed

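RNA sequencing libraries of MC3T3-E1 cells, 3 each for Control, BGP and NaHPO4, were re-analysed from the deposited tables. RNA was isolated with TRIzol and libraries were made with a stranded polyA kit. Reads were mapped by the authors to GRCm39 (Ensembl 104 annotation) in the AIR software, and the submitters' processing notes name FastQC and edgeR; the aligner, the counting program and its strand setting are not given in the sources used here. The authors deposited whole-number counts per gene, not normalized, and a TMM table, whose values are a signal equal to those counts multiplied by a factor of 1.01 to 1.32 per library, which was used for an alternative only. Both tables hold 55416 genes.

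The 5 genes and the lists beside them were chosen with earlier results of these data known. Counts were filtered with filterByExpr of edgeR 4.0.16 (R 4.3.3, count minimum 10), which kept 13679 genes, scaled by TMM and fitted with glmQLFit to all 9 libraries. Comparisons were tested two-sided with glmQLFTest and Benjamini-Hochberg adjustment over all tested genes. A gene was a DEG at an FDR under 0.05 if its absolute log2FC also exceeded 0.5. CPM used TMM-scaled library sizes, and lengths and positions came from GENCODE M39 on GRCm39 (13621 tested genes had a length). Text named the 5 genes, receptors of the 5, and from each list up to 4 genes past the FDR with the largest change; genes outside this rule are marked. Alternatives were DESeq2 1.42.0, limma 3.58.1 on log2 of the authors' values plus 1, other edgeR tests, scalings and filters, the replicate number as a block, and fits without 1 library each.

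On simulated counts of BGP versus Control with 13518 genes tested, the procedure recovered 98 of 100 genes changed 1.5-fold and 100 of 100 changed 2-fold, with 12 false calls; smaller changes, such as those of the 5 genes, were not simulated. Same-numbered libraries hardly deviated together (mean r 0.0127 over 9 pairs), so the numbers were not used as pairs in the main fit. The highest r were those of Control with NaHPO4, at 0.0301, 0.0426 and 0.0409. Differently numbered libraries reached at most 0.0239. A count of 0 was read as at most 3 counts, and such limits cover counting error only.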

Additional observations from a re-analysis of the deposited data

Results flagged for a closer look

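Tnfrsf11b differed between the phosphates in the direct test: BGP against NaHPO4 gave a log2FC of -0.19 (adjusted p = 0.000282 by edgeR's quasi-likelihood test), with all 3 BGP libraries below all 3 NaHPO4 libraries.

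Genes of the lists also differed between the phosphates at an FDR below 0.05 in the same test. Lower with BGP were Osmr (log2FC -0.84) and Rab27b (-0.23). Among the factors and receptors around the set, Il12a (log2FC 0.71), Ccn3 (0.66), Sema7a (0.44), Vegfa (0.25), Sdc1 (0.23), Mmp14 (0.22), Sema3b (0.20) and Sphk1 (0.15) were higher with BGP. Of these, Ccn3 lost its call without BGP replicate 3 (adjusted p = 0.105), Sema3b without BGP replicate 1 or NaHPO4 replicate 3 (up to 0.0645) and Sphk1 in 8 of 19 alternatives (up to 0.179). Among upstream genes and glucocorticoid targets, Fos (log2FC 0.59), Vdr (0.55), Il6ra (0.33), Dusp1 (0.32), Il11ra1 (0.17), Lrp5 (0.15), Pth1r (0.13) and Ctnnb1 (0.11) were higher with BGP. Of these, 6 lost their call when some single libraries were left out. They were Fos without BGP replicate 1 or NaHPO4 replicate 2 (adjusted p up to 0.0793), Il6ra without BGP replicate 1 or 2 or NaHPO4 replicate 2 (0.140) and Dusp1 without replicate 3 of BGP or of NaHPO4 (0.0537). Il11ra1 lost it without BGP replicate 3 or NaHPO4 replicate 1 (0.0720), Lrp5 without BGP replicate 1 or 3 (0.0576), and Ctnnb1 without BGP replicate 2 or 3 or NaHPO4 replicate 3, as well as with limma and with total counts (0.0916).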

How the results depend on the processing

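Across 19 alternatives, all results of Tnfrsf11b kept their direction. Its rise with NaHPO4 passed in all 19 (log2FC 0.31 to 0.36, adjusted p from 2.02e-20 to 2.75e-07), and so did its difference between BGP and NaHPO4 (-0.22 to -0.17). Its rise with BGP passed in 16, and leaving out each library gave 0.12 to 0.17. The rise of Sema3a with NaHPO4 passed in 9. It missed the threshold when only the 2 groups were fitted (0.11, adjusted p = 0.068), with no filter (0.11, adjusted p = 0.0741) and with the replicate number as a block (0.11, adjusted p = 0.0581), and leaving out each library gave 0.093 to 0.12. The number of the 4 genes past an FDR of 0.05 with NaHPO4 was then 1 in place of 2 under each of those settings and 1 to 2 when libraries were left out. With BGP against Control it was 0 to 1 when libraries were left out. Csf1 between BGP and NaHPO4 came past the threshold when only the 2 groups were fitted (0.12, adjusted p = 0.0432) and with no filter (0.12, adjusted p = 0.00973), which made the count 2 in place of 1 in both. Leaving out each library gave 0.092 to 0.17 for it and a count of 1 to 2. Csf1 with NaHPO4 against Control ran from -0.12 to 0.011 and Il34 with BGP against Control from -0.028 to 0.091 when libraries were left out, with a change of sign and no call. The cause of these changes was not tested. The block changed no other call of the 4 genes. The DEG count stayed at 0 under all 21 settings. The ratio of Tnfsf11 to Tnfrsf11b gave no value under any setting, since Tnfsf11 is at 0.

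For the list genes, the same alternatives were added after seeing the data. Of 44 calls, 26 were kept under every alternative, 18 were lost under at least 1, and 0 changed sign. Scaling by total counts in place of TMM moved the median log2FC of all genes to 0.0246 with NaHPO4 against Control. It lost the calls of Wnt4, Fos and Tsc22d3 there and those of Sphk1, Ctnnb1 and the osteoblast marker Sp7 between the phosphates. Depth limits Il34 and Csf1r, with few counts, and Tnfsf11, which was below detection.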
